A study of Mus musculus with 29 samples.

Results

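Apolipoproteins are the proteins that coat lipoprotein particles, and the liver makes most of those found in plasma. The 10 genes described here are Apob and Mttp, which build very low density lipoprotein (VLDL), and the exchangeable apolipoproteins Apoe, Apoa1, Apoa2, Apoa4, Apoa5, Apoc1, Apoc2 and Apoc3. They are the 10 of 54532 rows of a liver read count table that carry these symbols. The list was chosen with earlier results of these data known. All 10 genes passed the filter on low counts that left 15603 genes to test.

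The table holds poly-A RNA sequencing of livers from male mice that differ in Prox1, a homeobox transcription factor of hepatocytes. In K556R mice a knock-in allele, limited to hepatocytes and switched on by Cre recombination at 8 weeks of age, encodes a Prox1 protein that cannot be modified by SUMO at that lysine. All mice then ate a diet of 20% fructose and 45% fat during the next 18 weeks, and livers were collected refed or fasted between ZT 15 and ZT 17. The groups are 8 refed K556R livers, 6 refed wild-type (WT) livers, 7 fasted K556R livers and 8 fasted WT livers, each divided over 2 labelled batches. The labels call the WT animals both wild type and control, and they say neither how Cre was delivered, nor whether WT mice received it, nor how long the fast lasted. Each library is taken as a separate liver, as the labels list it, and where animals were not separate the p-values measure only the spread between libraries.

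VLDL forms in the endoplasmic reticulum of the hepatocyte, where the transfer protein encoded by Mttp loads triglyceride onto Apob as it is made. The particle then leaves with Apoe and the small C apolipoproteins on its surface. Apoc2 activates lipoprotein lipase, Apoc3 and Apoc1 slow the clearance of the particle, and Apoa5 favours its lipolysis, while Apoa1 and Apoa2 are the main proteins of high density lipoprotein (HDL). Apoa4 is a lipid-binding apolipoprotein of the intestine that the mouse liver also makes.

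The genes lie in 2 clusters and 3 single places of the mm10 mouse genome. Apoa1 (chr9:46228580-46230466), Apoc3 (chr9:46232933-46235636), Apoa4 (chr9:46240696-46243459) and Apoa5 (chr9:46268633-46271919) are neighbours, with Apoc3 on the minus strand and the others on the plus strand. Apoe (chr7:19696109-19699188), Apoc1 (chr7:19689481-19692660) and Apoc2 (chr7:19671579-19677941) follow each other on the minus strand. Apoa2 (chr1:171225054-171226379) and Apob (chr12:7977648-8016835) are on the plus strand, and Mttp (chr3:138089854-138144968) is on the minus strand. These positions are whole protein-coding genes in GENCODE M21.

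The upstream sequences of Apoa5, Apoa2 and Apoe are shown because the results turn on these genes: Apoa5 was the member called after refeeding, Apoa2 had fasted genotypes that did not overlap, and Apoe had the smallest p between genotypes for the mean of both states. They are the 250 bases before the start site in RefSeq (GRCm38.p6), written 5′ to 3′ on the gene's own strand, and capitals mark motif matches. The Apoa5 sequence is chr9:46268383-46268632 on the plus strand, that of Apoa2 is chr1:171224804-171225053 on the plus strand, and that of Apoe is chr7:19699189-19699438 on the minus strand.
Apoa5: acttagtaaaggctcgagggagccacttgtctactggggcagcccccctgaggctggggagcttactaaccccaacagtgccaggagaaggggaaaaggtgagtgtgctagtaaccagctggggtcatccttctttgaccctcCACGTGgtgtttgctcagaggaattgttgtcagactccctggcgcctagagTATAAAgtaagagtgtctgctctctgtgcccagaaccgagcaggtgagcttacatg
Apoa2: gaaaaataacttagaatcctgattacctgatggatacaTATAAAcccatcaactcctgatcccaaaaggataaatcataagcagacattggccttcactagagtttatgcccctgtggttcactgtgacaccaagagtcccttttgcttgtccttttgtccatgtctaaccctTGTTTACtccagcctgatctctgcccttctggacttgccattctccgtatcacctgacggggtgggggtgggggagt
Apoe: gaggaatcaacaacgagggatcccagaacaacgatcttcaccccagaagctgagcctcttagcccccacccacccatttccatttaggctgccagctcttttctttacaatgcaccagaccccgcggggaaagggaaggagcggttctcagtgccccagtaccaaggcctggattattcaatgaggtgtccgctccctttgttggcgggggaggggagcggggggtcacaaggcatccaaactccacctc
A window was found for 8 of the 10 genes, the others being Apoc1 and Apoc3. Both strands of windows that end 50 bases after the start were searched for 4 motifs, and no match overlapped another. One was the E-box, spelled CACGTG, which 7.15% of 32851 RefSeq promoter windows hold. Another was the site of forkhead factors, spelled GTAAACA and held by 3.65% of windows. Part of an HNF4 site, spelled CAAAGNNCA, is held by 6.36% of windows. The TATA box, spelled TATAAA, is held by 13.6% of windows. The Apoa5 window holds an E-box from -107 to -102 and a TATA box from -56 to -51, counted back from the start site. The Apoa2 window holds a TATA box from -212 to -207 and a forkhead site on the opposite strand from -77 to -71, and the Apoe window holds none of the 4. A match describes the letters and does not show that a factor binds.

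The libraries held 14385218 to 27278251 counts, with 19065976 to 27278251 in the 15 libraries of batch 1 and 14385218 to 23526145 in the 14 of batch 2. Levels below are CPM, counts scaled to the size of the library, and CPM per kilobase of exon where genes are compared with each other. Prox1 itself ran from 120 to 203 CPM in refed K556R livers, 125 to 184 CPM in refed WT livers, 167 to 203 CPM in fasted K556R livers and 153 to 195 CPM in fasted WT livers, and gene counts cannot show the amino acid change. Hepatocyte markers were abundant in every library, with Alb, the gene of albumin, between 595022 and 2199873 counts. The intestinal markers Sis and Cdx1 had 0 counts in all 29 libraries, and Lct, Alpi, Cdx2 and Rbp2 had at most 3. Of the other enterocyte markers, Vil1 had 0 to 20 counts and Fabp2 had 1293 to 4476, and the summed level of the 8 was 126 to 164 CPM in refed K556R, 93.4 to 177 CPM in refed WT, 105 to 176 CPM in fasted K556R and 123 to 168 CPM in fasted WT livers.

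The apolipoprotein genes were among the most abundant transcripts of these livers. Together the 10 genes held 4.77% ± 0.57 of all counts in refed K556R livers (SD, n = 8), 5.18% ± 0.44 in refed WT livers (n = 6), 4.77% ± 0.32 in fasted K556R livers (n = 7) and 5.24% ± 0.35 in fasted WT livers (n = 8). Over single libraries the share ran from 4.13% to 5.8%. Apoe alone averaged 25000 CPM, the second highest level of the 15603 tested genes.

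Per length, Apoe at 11700 ± 1600 CPM per kb and Apoa2 at 11200 ± 1240 CPM per kb (SD, n = 29) led, at ranks 4 and 5 of 15599 genes, and lay within each other's spread. Apoa1 followed at 4500 ± 637 CPM per kb and Apoc1 at 3920 ± 506 CPM per kb, again within their spread. Apoc3 had 1610 ± 194 CPM per kb and Apoa4 807 ± 308 CPM per kb. Apob, whose exons span 13934 bases, had 418 ± 44.3 CPM per kb, and Apoa5 had 409 ± 83.6 CPM per kb, so that these 2 could not be ordered. Mttp stood lower at 67 ± 7.98 CPM per kb, and Apoc2 was lowest at 6.02 ± 1.43 CPM per kb.

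The Apoc2 row is uncertain. It held 14 to 168 counts per library, while the next gene of the cluster, Apoc4, held 6504 to 12589. Of the 813 exon bases of Apoc2, 646 are shared with Gm44805, an annotated gene on the same strand with 0 to 8 counts, and whether reads of Apoc2 were dropped or assigned elsewhere was not tested. Its values are given, but they rest on few counts. Apoa4 shares 634 exon bases with Gm47528 on the opposite strand, which held 12 to 297 counts against 7231 to 66851 for Apoa4.

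**Figure D1:**
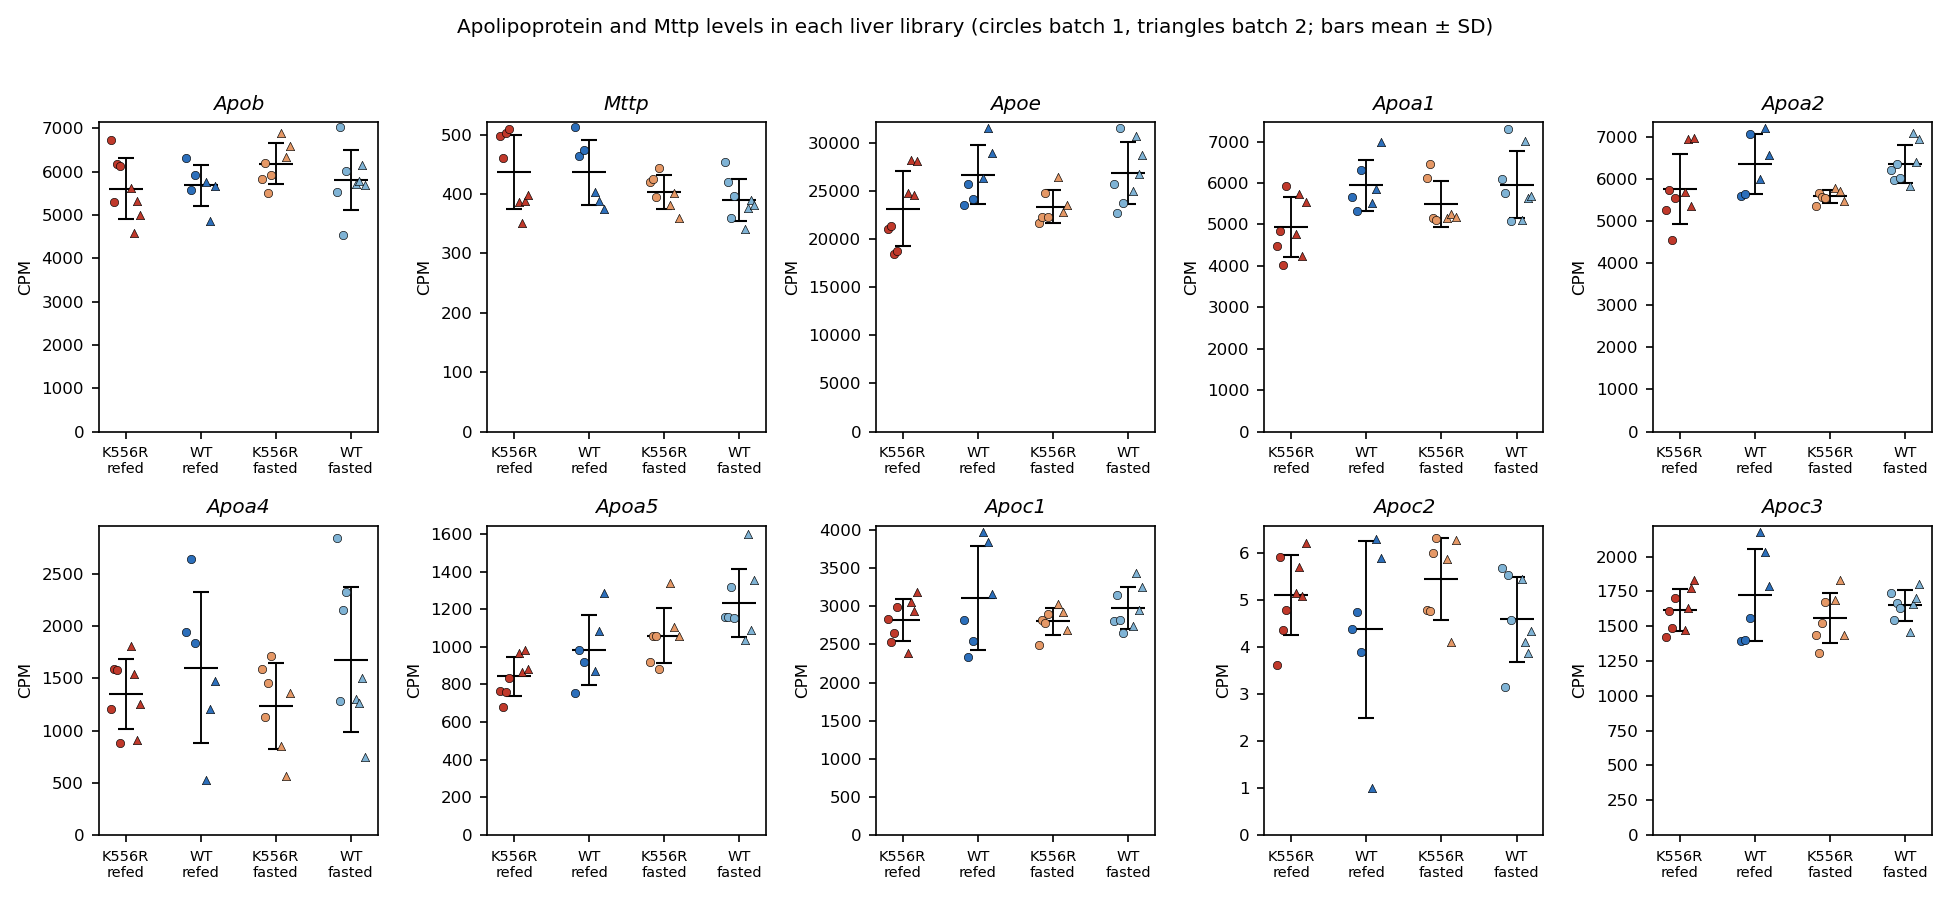
Level of each of the 10 genes in CPM (y axis, from 0) in the 29 liver libraries by group (x axis); circles are batch 1, triangles batch 2, and bars the mean ± SD. The mean of Apoa5 is lower in both refed groups than in the fasted group of the same genotype, and Apoa4 runs from 522 to 2850 CPM.

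The first question was whether apolipoprotein transcripts differed between K556R and WT livers. Gene counts do not measure SUMOylation, and if WT mice received no Cre, the allele and Cre exposure cannot be told apart. None of the 10 genes passed the test between genotypes, in any feeding state: 0 of 10 in refed livers, where 0% of the 15603 tested genes were called, 0 of 10 in fasted livers (0.103% called) and 0 of 10 in the mean of both states (1.24% called). DESeq2's Wald test also called 0 of 10 in refed livers (0.306% of the genes it gave an adjusted p) and in fasted livers (0.632%), and 2 of 10 in the mean of both (3.08%). The main test was edgeR's quasi-likelihood test, and a gene counted as called when its p, adjusted over all tested genes by Benjamini and Hochberg, was below 0.05. The mean of both states uses the same libraries as the separate comparisons and adds no new samples. All the same, 4 abundant genes had lower fitted levels in K556R livers in both states and in both batches: Apoe, Apoa1, Apoa2 and Apoa5, singled out here after their values were seen. Their log2 fold changes for the mean of both states lay between -0.22 and -0.16. At an unadjusted p below 0.05 these 4 of 10 passed in the mean of both states, as did 14.7% of all tested genes, while 3 of 10 did in refed livers (8.45% of all genes) and 3 of 10 in fasted livers (9.48%).

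Apob, the structural protein of VLDL, did not pass the test between genotypes. It had 4580, 5470 and 6730 CPM (lowest, median and highest) in refed K556R livers, against 4870, 5710 and 6320 CPM in refed WT livers. Fasted K556R livers had 5500, 6200 and 6890 CPM and fasted WT livers 4550, 5750 and 7020 CPM. The groups overlapped in both states when the batches were pooled. For the mean of both states its log2 fold change was 0.03 (SE 0.059, 95% interval -0.09 to 0.15, adjusted p = 0.837, edgeR quasi-likelihood). In batch 2 alone the 3 fasted K556R livers, at 6890, 6333 and 6597 CPM, lay above the 4 fasted WT livers, at 5715, 5779, 6157 and 5697 CPM. Of all tested genes, 3.19% were higher without overlap in that batch, and the fasted groups overlapped in batch 1.

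Mttp showed the narrowest interval of the 10 genes between genotypes. Its log2 fold change for the mean of both states was 0.02 (SE 0.042, 95% interval -0.07 to 0.10, adjusted p = 0.895, edgeR quasi-likelihood). Refed K556R livers averaged 437 ± 62.7 CPM (SD, n = 8) and refed WT livers 436 ± 55.1 CPM (n = 6). Fasted K556R livers averaged 404 ± 28.4 CPM (n = 7) and fasted WT livers 390 ± 35 CPM (n = 8).

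Apoe, a ligand by which the liver takes up remnant particles, had the smallest p of the 10 genes between genotypes for the mean of both states. Refed K556R livers had 18500, 23000 and 28200 CPM (lowest, median and highest), against 23500, 26100 and 31600 CPM in refed WT livers. Fasted K556R livers had 21700, 22800 and 26400 CPM, against 22800, 26300 and 31500 CPM in fasted WT livers. Each K556R median was below the WT median of its state, and the ranges overlapped in both states. Its log2 fold change was -0.21 (SE 0.079, adjusted p = 0.445) in refed and -0.185 (SE 0.076, adjusted p = 0.436) in fasted livers, and -0.20 (SE 0.055, adjusted p = 0.0624) for the mean of both states by edgeR's quasi-likelihood test. DESeq2's Wald test on the same counts put that mean at -0.20 with an adjusted p of 0.0159, past the threshold. In batch 1 the 4 refed K556R livers, at 21120, 21350, 18490 and 18790 CPM, lay below the 3 refed WT livers, at 23540, 25760 and 24230 CPM, as 4.34% of all tested genes did in that batch. In batch 2 the refed groups overlapped.

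The main HDL apolipoproteins had lower fitted levels in K556R livers as well, without passing the test. Apoa1, which activates the esterification of cholesterol in HDL, had 4010, 4800 and 5930 CPM in refed K556R livers, against 5330, 5770 and 7000 CPM in refed WT livers. It had 5100, 5170 and 6460 CPM in fasted K556R livers and 5080, 5720 and 7310 CPM in fasted WT livers. Its groups overlapped in both states. In log2 terms the fold change was -0.27 (SE 0.097, adjusted p = 0.431) in refed and -0.12 (SE 0.093, adjusted p = 0.74) in fasted livers, and -0.19 (SE 0.067, adjusted p = 0.15) for the mean of both (edgeR quasi-likelihood).

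Apoa2 was the only one of the 10 genes whose genotype groups did not overlap with batches pooled, and this held in fasted livers. Fasted K556R livers had 5350, 5580 and 5790 CPM, against 5850, 6290 and 7110 CPM in fasted WT livers. All 7 fasted K556R libraries lay below all 8 fasted WT libraries, as 0.109% of the tested genes did, and the same held within each batch, as for 0.282% of the tested genes. The gap between the highest K556R and the lowest WT library was small, at 5791 and 5848 CPM. The fitted log2 fold change was -0.18 (SE 0.071, adjusted p = 0.422, edgeR quasi-likelihood), so the gene was not called. In refed livers the ranges overlapped, with 4540, 5620 and 6970 CPM in K556R and 5590, 6290 and 7230 CPM in WT, and the log2 fold change was -0.14 (SE 0.073, adjusted p = 0.608).

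Apoa5 had lower fitted levels in K556R livers in both states, again without passing edgeR's test. Refed K556R livers had 682, 852 and 982 CPM, against 753, 951 and 1290 CPM in refed WT livers. Fasted K556R livers had 885, 1060 and 1340 CPM, against 1040, 1160 and 1600 CPM in fasted WT livers. The groups overlapped in both states, but in batch 1 the 4 fasted K556R livers, at 918.9, 1055, 1060 and 884.7 CPM, lay below the 4 fasted WT livers, at 1156, 1158, 1320 and 1154 CPM, as 2.76% of all tested genes did. The log2 fold change was -0.22 (SE 0.094, adjusted p = 0.506) in refed and -0.21 (SE 0.091, adjusted p = 0.47) in fasted livers. For the mean of both states it was -0.22 (SE 0.065, adjusted p = 0.0949, edgeR quasi-likelihood), and DESeq2 gave -0.21 with an adjusted p of 0.0478.

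Apoa4 varied most of the 10 genes from library to library. Its biological coefficient of variation in the fit was 31.6%, against 9.65% to 14.1% for the others apart from Apoc2 at 25%, and its mean was 1.5 times as high in batch 1 as in batch 2. In batch 1 the 4 refed K556R livers, at 1209, 1587, 1580 and 884.5 CPM, lay below the 3 refed WT livers, at 1941, 2647 and 1839 CPM, as 4.34% of all tested genes did in that batch. In batch 2 the refed K556R livers had 1807, 1542, 915.1 and 1255 CPM and the refed WT livers 522.3, 1204 and 1474 CPM, which overlap. The refed genotype log2 fold change was therefore -0.705 in batch 1 and 0.37 in batch 2, a difference of -1.075 (SE 0.45) with an unadjusted p of 0.025 and an adjusted p of 0.34 in the group by batch model of edgeR. The fasted log2 fold change was -0.46 (SE 0.23, adjusted p = 0.545), with -0.55 in batch 1 and -0.365 in batch 2.

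The C apolipoproteins showed no call between genotypes and small fitted differences, apart from the sparse Apoc2. Apoc1 averaged 2820 ± 273 CPM in refed K556R and 3110 ± 680 CPM in refed WT livers, and 2800 ± 178 CPM in fasted K556R and 2980 ± 274 CPM in fasted WT livers (SD). Its log2 fold change for the mean of both states was -0.10 (SE 0.059, adjusted p = 0.444, edgeR quasi-likelihood). The genotype groups of both Apoc1 and Apoc3 overlapped in each state. Apoc3 averaged 1620 ± 149 CPM in refed K556R and 1730 ± 331 CPM in refed WT livers, and 1560 ± 181 CPM in fasted K556R and 1650 ± 110 CPM in fasted WT livers. Its log2 fold change for the mean of both states was -0.08 (SE 0.057, adjusted p = 0.544). In both genes the refed WT libraries differed between batches: Apoc1 had 2560 ± 244 CPM in batch 1 and 3660 ± 435 CPM in batch 2, and Apoc3 had 1450 ± 92.4 CPM and 2000 ± 196 CPM in these batches (n = 3 each). The refed genotype effect of Apoc1 differed between batches by 0.44 (SE 0.15) on the log2 scale, with an unadjusted p of 0.0063 and an adjusted p of 0.252 (edgeR). Apoc2 had 5.11 ± 0.85 CPM in refed K556R and 4.38 ± 1.88 CPM in refed WT livers, with 1 refed WT library at 1.01 CPM, and 5.45 ± 0.88 CPM in fasted K556R and 4.59 ± 0.90 CPM in fasted WT livers. Its log2 fold change for the mean of both states was 0.23 (SE 0.15, adjusted p = 0.488).

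**Figure D2:**
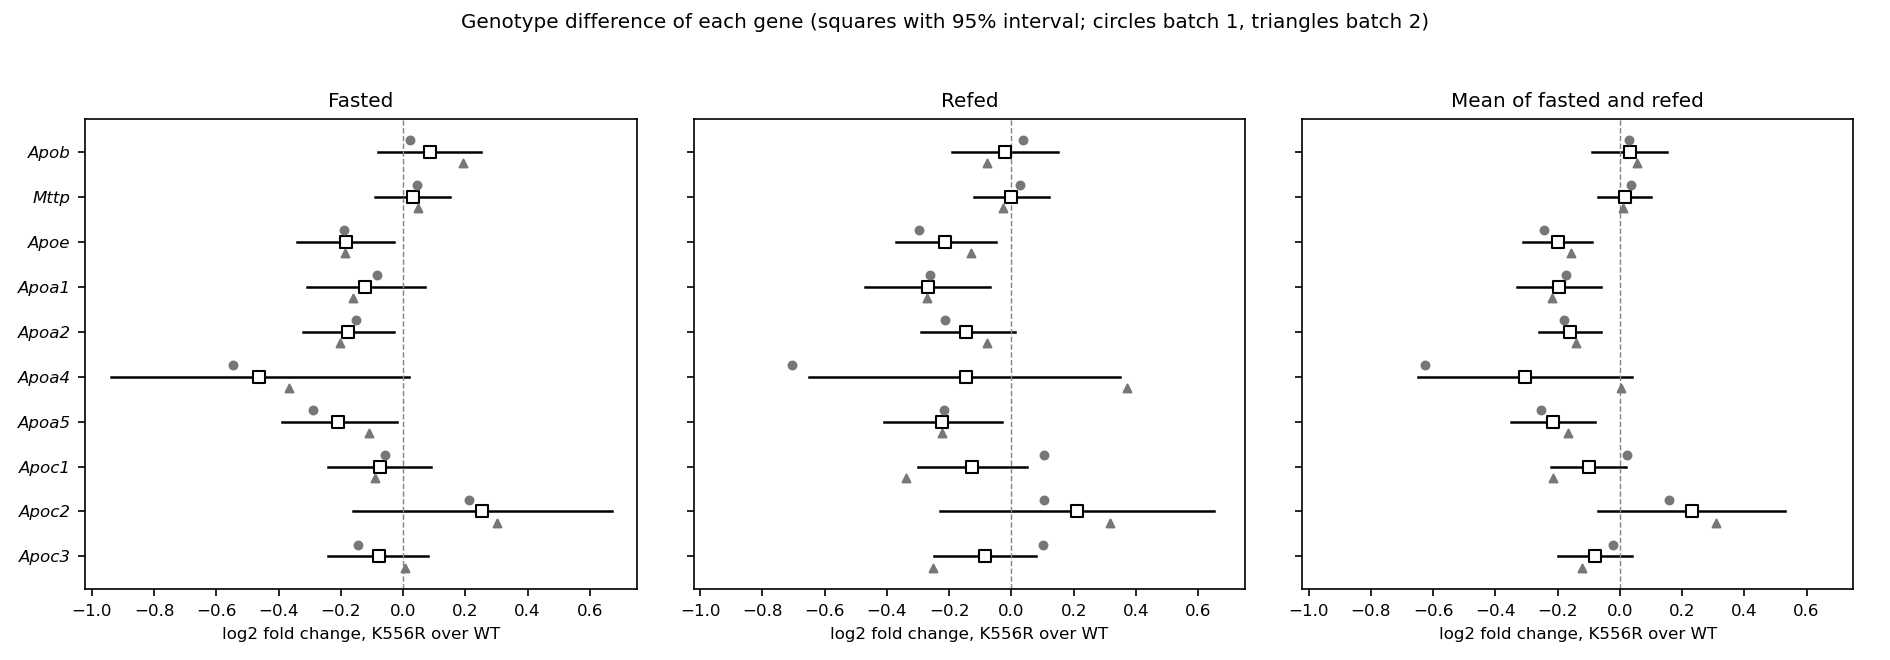
Log2 fold change of K556R over WT (x axis) for each of the 10 genes (y axis) in fasted livers, refed livers and the mean of both; squares carry 95% intervals from edgeR, circles are batch 1 alone and triangles batch 2 alone. Open squares mark genes that were not called, which all are here; Apoe, Apoa1, Apoa2 and Apoa5 lie left of 0 in each panel, and the batches of Apoa4 part in refed livers, at -0.705 and 0.37.

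Over the 10 genes the median log2 fold change was -0.14 in refed livers, -0.10 in fasted livers and -0.13 for the mean of both, while the median of all tested genes was within 0.002 of 0 in each. No difference of the genotype effect between feeding states was detected for the 10 genes: 0 of 10 were called in the test of that difference by edgeR, where 0% of all tested genes were called, and 0 of 10 had an unadjusted p below 0.05, against 2.82% of all genes. DESeq2 called 0 genes in that comparison as well. The 95% intervals leave room for differences, from -0.38 to 1.01 on the log2 scale for Apoa4 and from -0.65 to 0.56 for Apoc2. Nor was any of the 10 called for a difference between batches in any of the 6 comparisons, where 0% of all tested genes were called except for refeeding in K556R, at 3.54%. In bulk liver, fewer cells of a type and less RNA per cell cannot be told apart.

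Markers of some cell types had log2 fold changes mostly of the same sign between the refed genotype groups, but none was called in refed or fasted livers. The 15 macrophage markers, which matter for Apoe because macrophages also make it, had 15 of 15 positive log2 fold changes in refed K556R over refed WT livers with a median of 0.27, and 12 of 15 in fasted livers with a median of 0.09; 0 of 15 were called in either. Their summed level was 442 to 700 CPM in refed K556R, 348 to 585 CPM in refed WT, 306 to 853 CPM in fasted K556R and 305 to 1060 CPM in fasted WT livers. None of the 15 was at 0 throughout, and their part in the Apoe values was not tested. In the same refed comparison 6 of 6 tested cholangiocyte markers were positive with a median of 0.47, 10 of 11 stellate cell markers with a median of 0.24, and 3 of 13 hepatocyte markers with a median of -0.08, and 0 were called in each list. The summed cholangiocyte level was 59.2 to 173 CPM in refed K556R and 43.3 to 126 CPM in refed WT livers, the stellate cell level 246 to 596 CPM in refed K556R and 284 to 518 CPM in refed WT livers, and the hepatocyte level 80000 to 99100 CPM in refed K556R and 75900 to 117000 CPM in refed WT livers. In fasted livers 4 of 6, 4 of 11 and 5 of 13 of these markers were positive, with medians of 0.06, -0.02 and -0.04. Of 8 endothelial markers 4 were positive in refed livers (median 0.006) and 4 in fasted livers (median 0.02). Of 8 lymphocyte markers 4 were positive in refed livers (median 0.15) and 6 in fasted livers (median 0.28). None of these markers was at 0 throughout, and their part in the values of the 10 genes was not tested.

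Libraries differed in the balance between long and short transcripts, which can vary with RNA quality or library preparation. An index was taken for each library as the median batch-centred log2 CPM of 2834 genes with over 6000 exon bases minus that of 523 genes with under 1500, using genes above 10 CPM on average and leaving out the 10 members. It was chosen after the values were seen. The index ran from -0.174 to 0.090 (median -0.010) in refed K556R, -0.242 to 0.1 (median -0.087) in refed WT, 0.032 to 0.180 (median 0.085) in fasted K556R and -0.165 to 0.142 (median 0.013) in fasted WT livers. Its median was thus higher in K556R than in WT livers in both states, and in batch 2 the fasted groups did not overlap, at 0.138 to 0.180 in K556R and -0.041 to 0.099 in WT.

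With this index as a covariate the fitted genotype differences were smaller for several of the 10 genes. The fasted log2 fold change of Apoa2 was -0.09 (SE 0.058, adjusted p = 0.829), that of Apoe -0.10 (SE 0.068, adjusted p = 0.851) and that of Apoa1 -0.01 (SE 0.081, adjusted p = 0.993), while Apoa5 had -0.17 (SE 0.097, adjusted p = 0.771). For the mean of both states Apoe had -0.135 (SE 0.049, adjusted p = 0.242), Apoa2 -0.10 (SE 0.042, adjusted p = 0.349), Apoa1 -0.12 (SE 0.058, adjusted p = 0.441) and Apoa5 -0.19 (SE 0.071, adjusted p = 0.259), all by edgeR. The refed values shrank less for Apoa1, at -0.22 (SE 0.079, adjusted p = 0.405, edgeR) against -0.27 without the covariate. Refed Apoe had -0.17 against -0.21, Apoa2 -0.10 against -0.145 and Apoa5 -0.20 against -0.22. The sparse Apoc2 had larger values with the covariate, 0.37 against 0.25 in fasted livers and 0.32 against 0.23 in the mean of both states. The fasted log2 fold change of Apob, the longest of the 10 transcripts, was -0.02 with the covariate, against 0.09 without it. Whether the index follows the handling of the RNA or the biology of the livers was not tested.

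**Figure D3:**
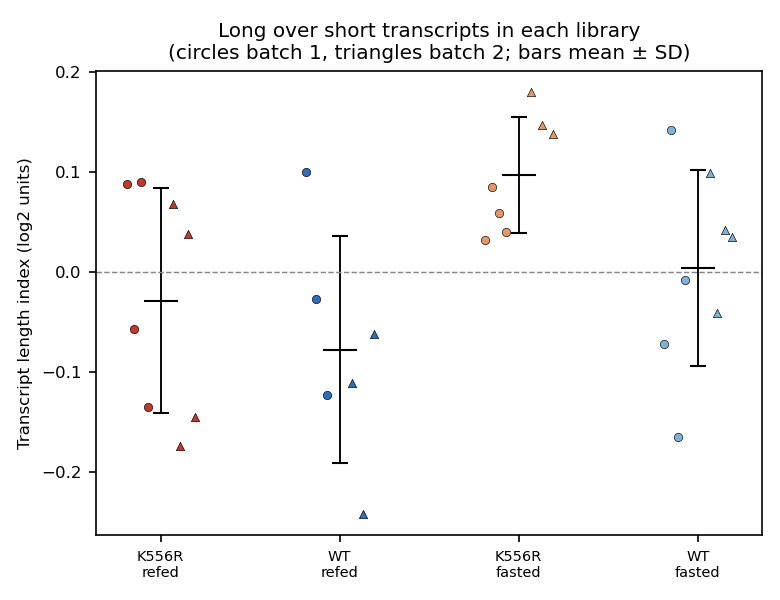
Transcript length index of each library (y axis, log2 units; higher means relatively more counts on long transcripts) by group (x axis); circles are batch 1, triangles batch 2, and bars the mean ± SD. The fasted K556R libraries sit between 0.032 and 0.180, all above 0, and the other groups spread on both sides of 0.

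The second question was how feeding state changed the same genes. Apoa5 was the only one of the 10 called after refeeding, and it fell in both genotypes: 1 of 10 genes was called in K556R livers, where 15.4% of all tested genes were called and 8.39% were called lower, and 1 of 10 in WT livers, where 10.7% were called and 5.43% were called lower. The share of the 10 genes called was thus near the background in both genotypes. The refeeding comparisons use the same libraries as the genotype comparisons, so the values of one are not independent of the other.

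Apoa5, which in mice lowers plasma triglyceride, had 682, 852 and 982 CPM in refed K556R livers (lowest, median and highest), against 885, 1060 and 1340 CPM in fasted K556R livers. By batch, the refed K556R livers had 764.4, 682.3, 758.5 and 835.5 CPM and the fasted ones 918.9, 1055, 1060 and 884.7 CPM in batch 1. In batch 2 the refed K556R livers had 967.4, 868.9, 982 and 881.6 CPM and the fasted ones 1339, 1106 and 1058 CPM. Within each batch every refed K556R liver was below every fasted one, as for 3.13% of all tested genes, though the pooled ranges overlapped. The log2 fold change was -0.35 (SE 0.091, 95% interval -0.53 to -0.16, adjusted p = 0.00744, edgeR quasi-likelihood), with -0.354 in batch 1 and -0.355 in batch 2 (adjusted p = 0.136 in batch 2 alone).

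In WT livers Apoa5 had 753, 951 and 1290 CPM when refed, against 1040, 1160 and 1600 CPM when fasted. In batch 1 the refed WT livers, at 752.8, 984.2 and 917.4 CPM, lay below the fasted ones, at 1156, 1158, 1320 and 1154 CPM, as 7.99% of all tested genes did. In batch 2 the groups overlapped, at 871.6, 1083 and 1288 CPM refed and 1038, 1599, 1092 and 1353 CPM fasted. In WT the log2 fold change was -0.34 (SE 0.095, 95% interval -0.53 to -0.14, adjusted p = 0.0197, edgeR quasi-likelihood), with -0.425 in batch 1 and -0.24 in batch 2. The call was lost in batch 2 alone (adjusted p = 0.435), without a batch term (0.0696), and without refed WT replicate 1 of batch 1 (0.0728) or refed WT replicate 1 of batch 2 (0.0646). The difference of the refeeding effect between genotypes was -0.01 (SE 0.13, 95% interval -0.28 to 0.25, adjusted p = 1).

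Mttp did not pass the test in either genotype, and its refeeding values parted by batch. In batch 1 the refed K556R livers had 498.5, 461.3, 502.6 and 509.1 CPM, against 420.2, 424.9, 394.4 and 444.4 CPM in fasted K556R livers. In the same batch the refed WT livers had 512.9, 463.5 and 475.1 CPM, against 454.8, 419.9, 360.2 and 396.4 CPM in fasted WT livers. Neither pair overlapped, and 7.99% of all tested genes were higher without overlap in batch 1 in K556R and 7.77% in WT. In batch 2 the pairs overlapped, with 387.2, 351.4, 388.1 and 398.9 CPM refed and 381.7, 402.4 and 360.2 CPM fasted in K556R, and 403.7, 388.2 and 375.3 CPM refed and 341.8, 376.1, 390.3 and 382.2 CPM fasted in WT. The log2 fold change was 0.12 (SE 0.058, adjusted p = 0.167) in K556R, with 0.24 in batch 1 and -0.02 in batch 2. In WT it was 0.15 (SE 0.060, adjusted p = 0.105, edgeR quasi-likelihood), with 0.26 in batch 1 and 0.06 in batch 2. The difference between batches had an unadjusted p of 0.0403 in K556R and 0.105 in WT (adjusted p = 0.226 and 0.664, edgeR).

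Apob was lower in refed than in fasted K556R livers in batch 2, and no change was detected in batch 1. In batch 2 the refed K556R livers had 5624, 4585, 5316 and 5008 CPM, below the fasted ones at 6890, 6333 and 6597 CPM, as 14.5% of all tested genes were in that batch. In batch 1 they had 6732, 5292, 6183 and 6140 CPM refed and 5824, 6197, 5499 and 5932 CPM fasted, which overlap. Batch 2 thus gave a log2 fold change of -0.38 (adjusted p = 0.0119 in that batch alone) and batch 1 one of 0.065, with -0.14 over both (SE 0.081, adjusted p = 0.272, edgeR quasi-likelihood). The difference between batches, 0.42 (SE 0.15), was not called (adjusted p = 0.112), although 3.54% of all tested genes were called for this difference. The length index of the K556R libraries of batch 2 was -0.174 to 0.068 refed and 0.138 to 0.180 fasted, and with the index as a covariate the log2 fold change over both batches was 0.01 (SE 0.065). In WT livers Apob had a refeeding log2 fold change of -0.03 (SE 0.085, adjusted p = 0.876).

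For the other 7 genes the refeeding comparison gave no call. In batch 1 the refed K556R livers, at 18490 to 21350 CPM of Apoe, lay below the fasted ones, at 21670 to 24800 CPM, as 8.07% of all tested genes did, and in batch 2 they overlapped. In K556R livers the log2 fold changes of these 7 genes ran from -0.15 for Apoa1 to 0.24 for Apoa4. In WT livers they ran from -0.08 for Apoa4 to 0.05 for Apoc1 and Apoc3. By batch, Apoc1 in WT had -0.15 in batch 1 and 0.23 in batch 2, and Apoc3 had -0.17 and 0.265. The difference between batches had an unadjusted p of 0.0127 for Apoc1 and 0.00454 for Apoc3 (adjusted p = 0.433 and 0.364, edgeR). In K556R Apoe had -0.18 in batch 1 and 0.11 in batch 2 (unadjusted p = 0.0377, adjusted p = 0.218, edgeR). Only 3 of the 10 genes had the same sign in both batches, in each genotype. Apoe had -0.04 (SE 0.076, 95% interval -0.20 to 0.12) in K556R and -0.01 (SE 0.079, 95% interval -0.18 to 0.15) in WT. Apoa2 had 0.03 (95% interval -0.11 to 0.17) in K556R and 0.00 (95% interval -0.15 to 0.15) in WT. With the length index as a covariate, Apoa1 in K556R had a log2 fold change of -0.305 (SE 0.085, adjusted p = 0.016), which passed the threshold, and so did Mttp in WT at 0.19 (SE 0.058, adjusted p = 0.0384). Over the 10 genes the median refeeding log2 fold change was -0.02 in K556R and -0.01 in WT, beside 0.01 and 0.00 for all tested genes.

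**Figure D4:**
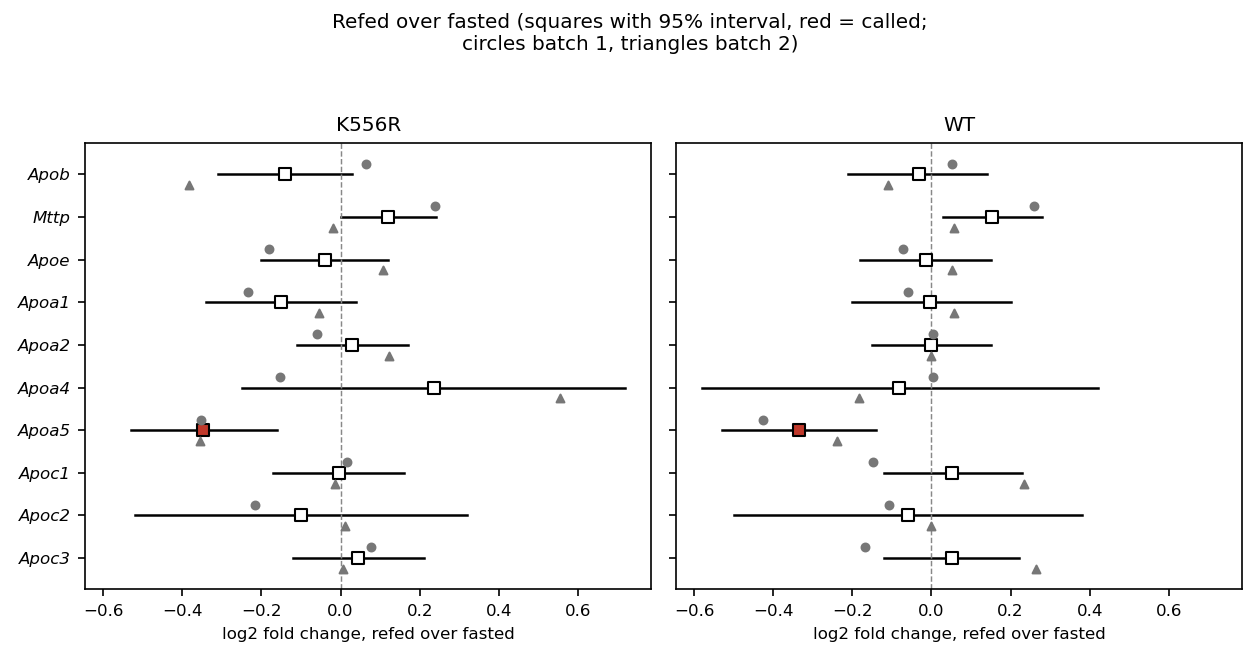
Log2 fold change of refed over fasted livers (x axis) for each of the 10 genes (y axis) in K556R and WT; squares carry 95% intervals from edgeR and are red where called, circles are batch 1 alone and triangles batch 2 alone. Apoa5 is red in both panels, at -0.35 and -0.34. The batches lie apart for several genes, among them Apob and Apoa4 in K556R, Apoc1 and Apoc3 in WT, and Mttp in both genotypes.

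Refeeding changes were also measured among genes that act with the 10, beside 15.4% of all tested genes called in K556R livers and 10.7% in WT livers. Of 28 partners in VLDL assembly and secretion, 5 rose and 3 fell in K556R livers, and 5 rose and 1 fell in WT livers. Acsl3, which activates fatty acids for lipid synthesis, rose by a log2 fold change of 1.44 (SE 0.19) in K556R and 1.06 (SE 0.19) in WT. Tfg, which organises export from the endoplasmic reticulum, rose by 0.31 (SE 0.067) in K556R and 0.45 (SE 0.069) in WT, and Tmem41b, a lipid scramblase, rose by 0.39 (SE 0.096) in K556R and 0.40 (SE 0.099) in WT. A1cf, a cofactor of Apob mRNA editing, fell by 0.43 (SE 0.11) in K556R, and Lpcat3, which remodels phospholipids, fell by 0.29 (SE 0.079) in WT. Adjusted p in these comparisons lay between 2.34e-06 and 0.0139 (edgeR quasi-likelihood). None of the 28 was called between genotypes in refed or fasted livers or in the mean of both.

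Of 20 genes of lipolysis, HDL and uptake, 5 rose and 2 fell after refeeding in each genotype, against the same 15.4% of all tested genes called in K556R and 10.7% in WT, and 0 were called between genotypes. Angptl4, an inhibitor of lipoprotein lipase induced by fasting, fell by 1.80 (SE 0.10) on the log2 scale in K556R and fell by 1.503 (SE 0.11) in WT. Angptl8, an inhibitor of lipoprotein lipase induced by feeding, rose by 3.30 (SE 0.30) in K556R and 2.40 (SE 0.29) in WT. Scarb1, the HDL receptor, fell by 0.39 (SE 0.079) in WT. No difference in refeeding effect between genotypes was called for these genes, in a test that called 0 of all tested genes.

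Of 23 transcriptional regulators of apolipoprotein genes, 3 rose and 9 fell after refeeding in K556R, and 4 rose and 5 fell in WT. Of the 15603 tested genes, 1088 were called higher and 1309 (8.39%) lower in K556R. In WT 819 were called higher and 848 (5.43%) lower. Srebf1, the regulator of fatty acid synthesis, rose by 2.07 (SE 0.15) in K556R and 1.46 (SE 0.15) in WT. Ppara, the fatty acid receptor of fasting, fell by 0.84 (SE 0.11) in K556R and fell by 0.67 (SE 0.11) in WT, and Foxo1, which insulin restrains, fell by 0.95 (SE 0.13) in K556R and fell by 0.88 (SE 0.14) in WT. Cebpb fell by 1.18 (SE 0.14) in K556R and fell by 1.35 (SE 0.14) in WT. Cebpb was also the only one of the 23 called between genotypes, in the mean of both states, where 1.24% of all tested genes were called. It was lower in K556R, with a log2 fold change of -0.43 (SE 0.097, adjusted p = 0.0222, edgeR quasi-likelihood). By batch this was -0.47 in batch 1 and -0.38 in batch 2.

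Of 18 other apolipoprotein genes, 16 had enough counts to test. Of these, 2 were called between genotypes in fasted livers (0.103% of all tested genes) and in the mean of both states (1.24%). They were Apol9a and Apol9b, members of the intracellular apolipoprotein L family, both higher in K556R livers. In fasted livers the log2 fold change was 1.43 (SE 0.27, adjusted p = 0.0316) for Apol9a and 0.99 (SE 0.21, adjusted p = 0.0482) for Apol9b (edgeR quasi-likelihood). By batch, Apol9a had 1.94 in batch 1 and 0.99 in batch 2, and Apol9b had 1.43 and 0.60. In the mean of both states Apol9a had 1.81 and 0.64 in these batches, and Apol9b had 1.38 and 0.44. The genes are close paralogs, so reads may be divided between them. After refeeding 1 of the 16 rose in K556R, and 1 rose and 1 fell in WT, beside 15.4% and 10.7% of all tested genes called. Apol7a rose in both genotypes, by 0.66 (SE 0.13) in K556R and 0.61 (SE 0.13) in WT. Saa1, an acute phase apolipoprotein of HDL, fell by 0.80 (SE 0.24, adjusted p = 0.026, edgeR quasi-likelihood) in WT. Its refeeding effect was not called different between genotypes. Of the marker lists, refeeding called 1 of 11 stellate cell and 2 of 13 hepatocyte markers in K556R, and 1 of 13 hepatocyte markers in WT. Lrat rose by 0.58 (SE 0.17) and Cyp2e1 fell by 0.55 (SE 0.13) in refed over fasted K556R livers. Pck1 fell by 1.65 (SE 0.20) in K556R and fell by 1.53 (SE 0.21) in WT. Vil1, 1 of 2 tested enterocyte markers, was higher in K556R in the mean of both states, where 1.24% of all tested genes were called. Its log2 fold change was 1.74 (SE 0.42, adjusted p = 0.0339, edgeR quasi-likelihood), on 0 to 20 counts per library. Batch 1 alone gave 1.75 and batch 2 alone gave no value, and the other tested enterocyte marker was not positive.

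The genes whose pattern over the 29 libraries was most like that of a member were ranked by Pearson's r of log2 CPM after the batch means were removed. These values describe likeness and carry no p, since the nearest of all tested genes were picked, and the libraries share depth, feeding state and the length index. No other member was among the 3 nearest of any of the 10. Apob was nearest to Usp9x (r = 0.92), Tnpo1 (0.908) and Cpne3 (0.881), and Mttp to Nbn (0.87), Eif4g2 (0.864) and Stk38 (0.86). Apoe was nearest to Uqcrc1 (0.885), Naxe (0.869) and Zfyve21 (0.866), and Apoa2 to Cox4i1 (0.869), Ddrgk1 (0.85) and Isoc2a (0.841). Apoa1 was nearest to Chchd10 (0.845), Eif3f (0.826) and F2 (0.79), and Apoa5 to Ppp1cc (0.857), Sirt3 (0.822) and Cisd1 (0.82). Apoa4 was nearest to Fam83a (0.89), Unc119 (0.887) and Cd63 (0.886). For Apoc1 these were Zfp830 (0.792), Mdh1 (0.762) and Pecr (0.759), for Apoc3 Taf15 (0.736), Hax1 (0.735) and Ubl5 (0.727), and for the sparse Apoc2 Aim2 (0.856), Aspm (0.812) and Dlec1 (0.806). Apoc2 had a log2 CPM of 0.15, from 14 counts, in 1 refed WT library of batch 2. The next lowest library, a fasted WT one of batch 1, had 1.70. The r values of Apoc2 may rest largely on that 1 refed WT library, and r without it was not computed.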

How the data were processed

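The deposited table holds raw counts of reads per Ensembl gene for 29 liver libraries, 1 column each. Per the submitters' processing notes, the tools named are edgeR, DESeq2, HTSeq, STAR, STAR-Fusion and TopHat, with the mm10 build, and neither versions nor roles are stated. The annotation release and the strand setting of the counting are not given in the sources used here, so overlapping genes on opposite strands are uncertain. GENCODE M21 (mm10) gave a symbol and position for 54495 of the 54532 rows, and the 37 others held 0.000917% of counts.

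Low genes were removed with filterByExpr at a minimum count of 10 and a minimum total of 15, libraries were scaled by TMM, and edgeR's quasi-likelihood model, with a coefficient for each of the 4 groups and 1 for batch, was fitted to all 15603 genes. Calls are at a p below 0.05 after Benjamini-Hochberg adjustment over all genes of a comparison. CPM use TMM-scaled library sizes; log2 CPM adds a prior count of 2. The SE is the one implied by the F statistic. Groups that do not overlap were counted over all tested genes for comparison. Alternatives were other scalings, no filter, DESeq2, no batch term, each batch alone, the replicate block, leaving out each library, and a transcript length index as a covariate, the last added after the data were seen.

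The 10 genes, the other gene lists and the tests were chosen with earlier results of these data known, and the lists come from general knowledge. All 10 genes are named in each comparison; of other lists, at most the 4 called genes with the smallest p, of which some single genes are not reported here; for likeness, the 3 genes with the highest r, leaving out Gm and Rik symbols. Chi-square values per degree of freedom between the 92 pairs of libraries within groups ran from 11 to 168, beyond counting error, so none was treated as a repeat of another. No library was left out. Gene counts may include PCR copies. The fitting code was tested on simulated data. Promoter sequences are from RefSeq (GRCm38.p6). The tools were edgeR 4.0.16, DESeq2 1.42.0 and limma 3.58.1 under R 4.3.3, with pandas 2.3.3 and matplotlib 3.10.9 under Python 3.11.15.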

Additional observations from a re-analysis of the deposited data

How the results depend on the processing

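The number of the 10 genes called was 0 between genotypes in refed and in fasted livers and 0 for the difference of the genotype effects under every alternative run, and 0 for a difference between batches under the scalings, the filter and the left-out libraries run for it. For the mean of both states it was 0, but 2 by DESeq2 (Apoe and Apoa5) and 0 to 2 when 1 library was left out: Apoe was called without K556R refed replicate 2 or replicate 4 of batch 2 (adjusted p 0.0469 and 0.0459), and Apoe and Apoa5 without WT fasted replicate 1 of batch 2 (0.0395 and 0.0448). For refeeding in K556R it was 1, but 2 with library totals only (Mttp, adjusted p = 0.0409), 2 with the length index (Apoa1), and 1 with each library left out; in batch 2 alone the 1 call was Apob. For refeeding in WT it was 1, but 0 without a batch term, 0 in batch 2 alone, 2 with the length index (Mttp) and 0 to 1 with a library left out. No alternative reversed a called direction, and of the single-gene values 167 changed sign where neither value was called, 10 gained and 5 lost a call. The cause was not tested.

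Repeat numbers were not taken to pair the libraries. Over 40 pairs with the same number in a batch, the correlation of residuals ran from -0.365 to 0.214 (median -0.109), and 7 were over 0.1. Pairs with different numbers were not measured, so these values cannot decide whether the numbers pair libraries. The pairs of K556R and WT libraries of the same feeding state ran from 0.024 to 0.214 in batch 1. All 7 were positive, 5 of them over 0.1, with a median of 0.144. The other same-number pairs of batch 1 had medians of -0.209 within a genotype and -0.192 across genotype and state. In batch 2 the same-state pairs ran from -0.365 to 0.174 (median -0.013, 1 of 6 over 0.1). With residuals of the group by batch model, the same-state pairs of batch 1 ran from -0.038 to 0.36 (median 0.179, 6 of 7 positive). Those of batch 2 then ran from -0.106 to 0.043 (median -0.064, 2 of 6 positive). The replicate block below joined fasted and refed libraries of a number, so a pairing within a feeding state was not tested. With the number as a replicate block, 1 of the 10 genes was called for refeeding in K556R, 1 in WT and 0 between genotypes, while calls over all genes for the mean genotype effect numbered 92, against 194 without the block and 425 by DESeq2. In fasted livers the genotype calls over all genes numbered 2 with the block, 2 with the length index and 89 by DESeq2, against 16, and in refed livers 45 by DESeq2, against 0. Apoc2 had the fewest counts of the 10 genes, at 14 to 168 per library, so counting error is largest there; the cause of its low counts was not tested.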
